A study of Mus musculus with 6 samples.

Results

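The genes described here build the junctions between epithelial cells: claudins and the other tight junction genes, adherens junction genes, desmosome genes and the genes of apical polarity. They were taken by symbol from the platform's annotation, as every gene whose symbol starts with Cldn, Nectin, Marveld, Tjp, Dsg, Dsc or Pkp followed by a number, plus a fixed set of named genes such as Ocln, Cdh1 and Epcam. The rule found 60 genes with 108 probes among the 19057 named genes on the array. Dsp, which the rule also names, was not matched and was not analysed here. The rule reads symbols alone, but it was drawn up with earlier results of these data known.

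Array measurements came from 6 cultures of mouse small intestinal organoids, self-organising epithelium derived from the gut lining. The control samples, 3 in number, came from Villin-Cre mice, and the 3 Snai1 knockout samples from Villin-Cre mice that also carried floxed Snai1 alleles on both chromosomes (Snai1fl/fl). All 6 therefore carried Cre under the Villin promoter, which is active in intestinal epithelium, and all had been exposed to 0.5 µM tamoxifen, with harvest at 24 hours. The labels do not say whether the samples of a group came from separate animals or cultures, so the p-values reflect the spread among these arrays alone, and that spread may be technical.

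Claudins and occludin seal the space between neighbouring epithelial cells near their apical end, and some claudins form channels that let chosen ions through. Below this seal, E-cadherin and the nectins hold cells together and are tied to actin by catenins and afadin, while desmosomal cadherins and plakophilins anchor the intermediate filaments. The Crumbs, Par and Lgl proteins set the apical and basolateral sides and place the junctions. Snai1 encodes a zinc-finger repressor that binds E-box sequences and is best known for repressing E-cadherin and other junction genes during epithelial-mesenchymal transition. Comparing the groups asks whether such genes differed in organoids labelled as having lost Snai1. Any other difference between the mouse lines follows the same grouping and cannot be told apart from that loss.

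Because Snail proteins bind the E-box CAGGTG, promoter windows are shown for some members. They are Nectin2, the only member called as different below, and 3 of the members with several copies in a window, chosen after the copies were counted. Windows of Pard3, Pard6b and Cldn7 also held several copies and are not shown. The sequences are the 250 bases before the transcription start in RefSeq (GRCm38.p6), written 5′ to 3′, with CAGGTG or its reverse complement CACCTG in capitals.

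Nectin2 (chr7:19749574-19749823, minus strand): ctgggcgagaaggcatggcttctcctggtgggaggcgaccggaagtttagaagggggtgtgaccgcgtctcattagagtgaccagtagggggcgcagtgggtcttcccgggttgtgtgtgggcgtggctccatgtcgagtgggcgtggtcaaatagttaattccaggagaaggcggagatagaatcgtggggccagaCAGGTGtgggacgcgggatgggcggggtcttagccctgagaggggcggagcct

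Ocln (chr13:100552499-100552748, minus strand): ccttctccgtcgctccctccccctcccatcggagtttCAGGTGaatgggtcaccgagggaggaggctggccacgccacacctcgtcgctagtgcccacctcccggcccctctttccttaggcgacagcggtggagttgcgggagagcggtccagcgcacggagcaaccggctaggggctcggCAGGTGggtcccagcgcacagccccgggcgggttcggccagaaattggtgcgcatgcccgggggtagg

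Crb3 (chr17:57061951-57062200, plus strand): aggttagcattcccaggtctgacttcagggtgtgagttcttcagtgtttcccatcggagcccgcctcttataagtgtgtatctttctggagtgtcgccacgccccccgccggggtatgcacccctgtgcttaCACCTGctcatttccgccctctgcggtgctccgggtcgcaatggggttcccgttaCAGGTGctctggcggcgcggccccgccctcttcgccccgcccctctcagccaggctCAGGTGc

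Epcam (chr17:87635729-87635978, plus strand): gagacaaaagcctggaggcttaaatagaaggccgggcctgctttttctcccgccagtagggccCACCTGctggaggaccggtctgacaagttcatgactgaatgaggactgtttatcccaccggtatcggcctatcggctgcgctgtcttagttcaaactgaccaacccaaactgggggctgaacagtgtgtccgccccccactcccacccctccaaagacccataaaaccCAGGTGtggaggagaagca

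The single match in the Nectin2 window began 53 bases before the start. Ocln had matches at 213 and 68 bases and Epcam at 187 and 19 bases. Crb3 had matches at 118, 63 and 7 bases. Ocln and Crb3 each have a further start in the table that is not shown. RefSeq windows were matched for 37 of the 60 genes, and 14 of these 37 (37.8%) held the motif on either strand in at least 1 window. The other 23, with Cdh1, Cdh17, Ctnna1, Llgl2, Dsg2 and Pkp2 among them, had no window and were not searched for the motif. Among all measured genes with a window, 2926 of 15237 (19.2%) held it. A gene with several windows has more places for a match. Counted by window, 16 of 53 junction gene windows (30.2%) held the motif, against 3143 of 18719 (16.8%) over all measured genes. These are matches of letters and describe no binding.

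Nectin2 was the only member called, in a fit that did not pair arrays by replicate number. It encodes an immunoglobulin-like adhesion molecule of the adherens junction that also binds receptors on lymphocytes. On the log2 scale its brightest probe read 10.80, 10.75 and 10.84 on the control arrays and 10.35, 10.42 and 10.40 on the knockout arrays. The groups did not overlap, and the gap between them was far wider than the spread within either group. Nectin2 fell by 0.41 on the log2 scale in the knockout (SE 0.03, 95% interval -0.48 to -0.33, n = 3 and 3). Control thus exceeded knockout 1.33-fold, with an adjusted p of 0.017 by limma over all genes. It was lower in all 3 pairs of the same replicate number (-0.45, -0.34 and -0.43). With the replicate number as a block the adjusted p was 0.071, so the call was lost. Leaving out any 1 array other than control replicate 2 also lost the call: the adjusted p was 0.15 without control replicate 1, 0.082 without control replicate 3, and 0.054, 0.1 and 0.12 without knockout replicates 1, 2 and 3. It was called in 7 of 14 alternative settings, where the adjusted p ran from 0.012 to 0.15. Among the 7, quantile normalization again repeated the main fit, since the deposited arrays were already equalised. In bulk samples, fewer cells that carry a transcript and less of it per cell cannot be told apart.

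The other Nectin2 probes did not all follow. The second probe read 10.19, 10.19 and 10.17 in control and 9.93, 9.85 and 9.87 in knockout, again without overlap. Fitted among all probes, this probe fell by 0.30 on the log2 scale (SE 0.03, limma adjusted p = 0.035). The third, at 8.35, 8.34 and 8.48 in control and 8.47, 8.41 and 8.46 in knockout, overlapped, with a difference of 0.06 ± 0.04 (SE, adjusted p = 0.95). This probe lay just above the upper quartile of all values, 8.27. Averaging the 3 probes left a difference of -0.22, with an adjusted p of 0.051. Of the 108 member probes, only these first 2 passed when all 45281 probes were fitted together, where 0.0883% of probes did.

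**Figure D1:**
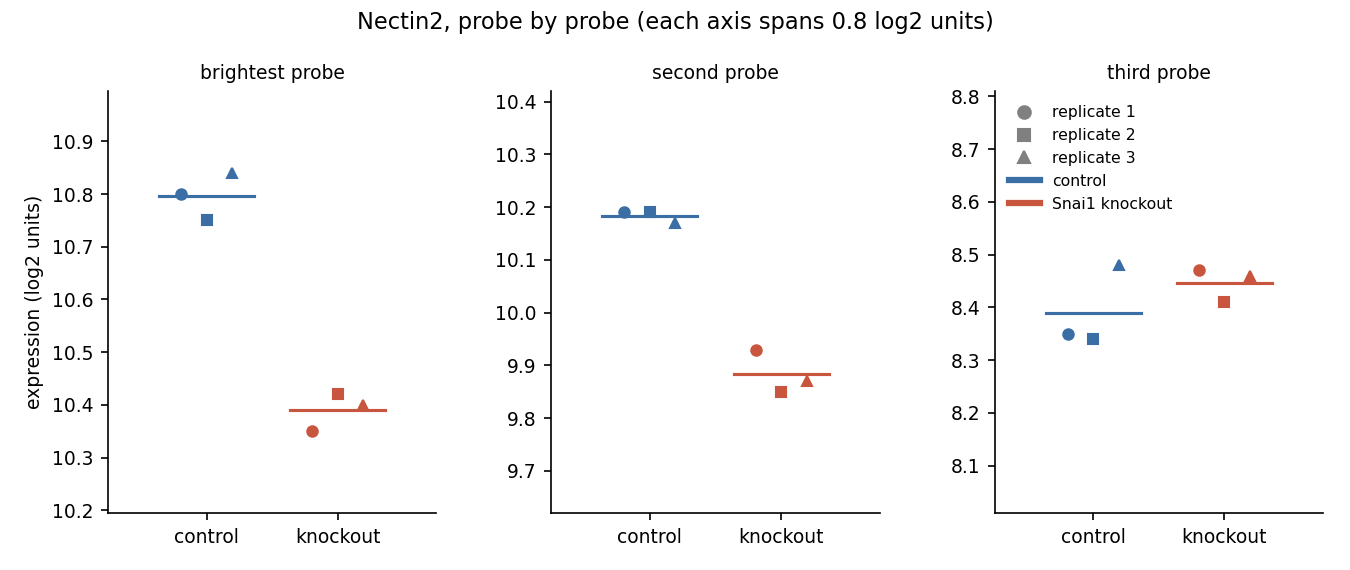
Expression (log2 units) of the 3 Nectin2 probes on each array, with marker shape giving the replicate number and horizontal lines the group means. The brightest and the second probe separated control from knockout without overlap, by 0.41 and 0.30, while the third did not.

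Over all junction genes the difference between genotypes was small. Nectin2 was the only 1 of 60 members called at an adjusted p under 0.05 by limma (1.67%), against a background of 0.131% of all genes called in either direction and 0.0945% called lower. No member was called higher (background 0.0367%). A count of 1 is too small to set these shares against each other. Of the 60, 31 had a higher and 29 a lower mean in the knockout, and the median difference was 0.002, beside -0.001 over all genes. At an unadjusted p under 0.05 there were 2 members (3.33%), Nectin2 and Llgl2, against 7.22% of all genes. Groups did not overlap for 5 members (8.33%), against 12.0% of all genes. Of these, Cldn18, Cldn11, Nectin2 and Pard6b were lower in the knockout (background 5.85%) and Dsg1b was higher (background 6.20%).

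Where a member's level lay on the scale bears on what could be seen. Of the 60, 25 had a mean above the upper quartile of all values, and the other 35 lay between it and the lowest value of 7.71. Among these dim genes the difference farthest from 0 was that of Crb3, -0.10. No detection calls were used here. For these genes a transcript at background, one at a low level and one that its probe does not report cannot be told apart. Outside the junction genes, the enterocyte markers Fabp1 and Fabp2 also averaged 7.79 and 7.81, beside Sis at 14.48. Among the 25 brighter members the median absolute difference was 0.08, against 0.07 for all 6969 genes above that level. For 21 of the 24 brighter members that were not called, the 95% interval of the difference lay within 0.5 log2 units of 0.

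**Figure D2:**
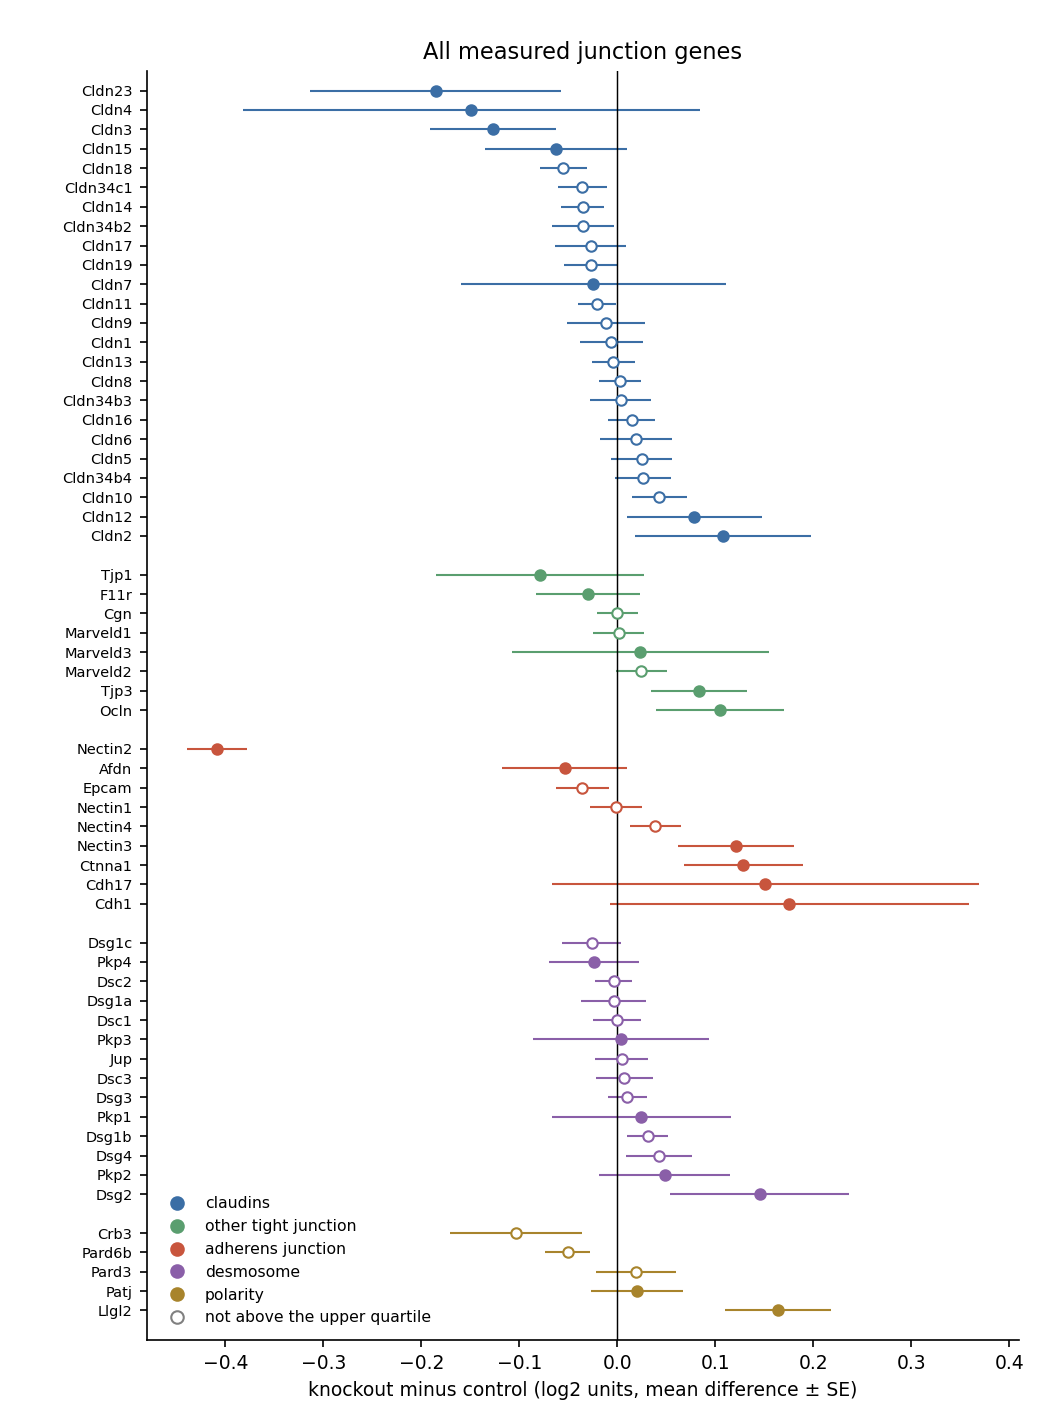
Mean difference (knockout minus control, log2 units) with its standard error for all 60 measured junction genes, ordered within 5 groups; open symbols mark genes not above the upper quartile of all values. Nectin2, at -0.41, stood apart, and the other genes lay between -0.19 and 0.18.

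Of 6 epithelial markers, 5 lay above the upper quartile of all values, and Epcam, at 8.13 in control and 8.10 in knockout, lay below it. The mean log2 level over Epcam, Cdh1, Krt8, Krt18, Krt19 and Vil1 ran from 11.57 to 11.77 on control and from 11.53 to 11.76 on knockout arrays. Of 14 mesenchymal, 5 immune and 5 neural markers none lay above the upper quartile, and of 6 endothelial markers 1 did. Snai1 itself read 7.91 in both groups, close to the median of all values, 7.87, so it does not check the labels. Crypt base stem cell markers had higher means in 8 of 8 cases, with list means of 9.82 to 10.06 in control and 10.00 to 10.24 in knockout, which overlapped. Smoc2, 1 of the 8, lay below the upper quartile and differed by 0.01. Among all 19057 genes 9393 had a higher mean, and the dim immune and neural markers had higher means in 5 of 5 cases each. Of 5 enteroendocrine markers 4 had lower means, and the list means of 9.05 to 9.09 in control and 8.94 to 9.01 in knockout did not overlap. Of 12 enterocyte markers 9 had lower means, but among these Sis differed by -7e-04, and Fabp1 and Fabp2 lay near the bottom of the scale. By limma, 3 enterocyte markers (25%) had an unadjusted p under 0.05 (Slc7a9 at -0.43, Apoa1 at -0.28 and Apoc3 at -0.25, adjusted p from 0.56 to 0.68). The same count was 2 of 8 crypt base, 2 of 5 enteroendocrine, 1 of 5 Paneth, 0 of 6 goblet and 0 of 4 tuft markers. Among all genes the share was 7.22%. The enterocyte list means, 10.73 to 11.11 in control and 10.76 to 10.97 in knockout, overlapped. No single marker in these lists was called, and their part in the Nectin2 result was not tested.

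The claudin family held 24 members, of which 7 were above the upper quartile, and none was called. Claudin-2 forms a channel for cations and water and is typical of crypts. Its gene Cldn2 read 12.35, 12.44 and 12.46 in control and 12.32, 12.62 and 12.63 in knockout, with overlap. The difference was 0.11 ± 0.09 (SE, adjusted p = 0.92), and its other probe gave 0.08. Claudin-15 is the main sodium channel of the small intestinal tight junction. Cldn15 read 13.12, 12.88 and 13.02 in control and 12.93, 12.87 and 13.03 in knockout. Its 3 probes differed by -0.06, 0.09 and -0.05, so they shared no direction.

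Claudins 3, 4 and 7 are mainly counted among the sealing claudins, and claudin-7 is bound by EpCAM. Cldn3 read 12.18, 12.16 and 12.34 in control and 12.19, 12.09 and 12.02 in knockout. A pair of knockout arrays lay below every control array and the first lay among them. The difference was -0.13 ± 0.06 (SE, adjusted p = 0.79). Cldn7 read 9.93, 9.89 and 10.25 in control against 9.80, 10.20 and 9.99 in knockout, a difference of -0.02 ± 0.14. The replicates of each group spread further than the groups differed.

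Cldn4 varied with the replicate number more than with genotype. It read 10.40, 10.64 and 11.05 on control arrays 1 to 3 and 10.23, 10.48 and 10.93 on knockout arrays 1 to 3. Arrays of the same number lay close together, and the knockout was lower in each pair, with differences of -0.17, -0.16 and -0.12. The difference of -0.15 had an SE of 0.23 without and 0.02 with the replicate block. With the block the unadjusted p was 0.0026 and the adjusted p 0.17, so Cldn4 did not pass by limma over all genes. Cldn23, chosen after its values were seen, had the same form, at 9.71, 9.57 and 9.89 in control and 9.56, 9.32 and 9.74 in knockout (blocked adjusted p = 0.18). Cldn12 differed by 0.08 ± 0.07.

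The other 17 claudins had group means of 7.78 to 8.19. Their differences ran from -0.05 to 0.04. Among them were Cldn1, a sealing claudin of many epithelia (7.88 in control and 7.87 in knockout), and Cldn5, the claudin of endothelium (7.82 and 7.85). Cldn8, a sealing claudin of the colon, read 7.82 in both groups. Cldn18, best known from stomach and lung, read 7.91, 7.88 and 7.94 in control and 7.84, 7.87 and 7.85 in knockout. It and Cldn11 (7.80 and 7.78 as group means) were the claudins whose groups did not overlap; in both, the nearest arrays of the groups lay close together. Cldn10 read 7.88, 7.80 and 7.83 in control and 7.85, 7.90 and 7.88 in knockout. Cldn14 read 7.85, 7.87 and 7.82 in control and 7.82, 7.81 and 7.80 in knockout. Both overlapped between the groups. The 4 members of the Cldn34 family, close relatives whose transcripts the probes may share, lay between 7.79 and 7.89.

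Of the 8 other tight junction genes, 5 had a higher and 3 a lower mean, and none was called. Occludin, the first transmembrane protein found at this junction, is a reported Snail target. Ocln read 9.04, 8.93 and 9.09 in control and 9.19, 9.0 and 9.18 in knockout. The groups overlapped, but each knockout array lay above the control array of its number, by 0.15, 0.07 and 0.09. The difference was 0.11 ± 0.07 (SE, adjusted p = 0.86; 0.28 with the block).

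Tjp1, which encodes the scaffold ZO-1, read 8.31, 8.53 and 8.59 in control and 8.22, 8.42 and 8.55 in knockout. The order was the reverse of occludin's, with each knockout array below the control of its number. The difference was -0.08 ± 0.11 (SE, adjusted p = 0.97; 0.39 with the block). Tjp3, for the related scaffold ZO-3, read 9.75, 9.71 and 9.77 in control and 9.76, 9.93 and 9.79 in knockout. Its probes disagreed in sign, with differences of 0.08 for the one used and -0.12 for the other.

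F11r, which encodes the junctional adhesion molecule JAM-A, read 8.83, 8.87 and 8.79 in control and 8.79, 8.71 and 8.90 in knockout. Marveld3 read 9.52, 9.36 and 9.39 in control and 9.69, 9.17 and 9.47 in knockout, where knockout arrays spread more widely than controls. Neither gene showed a difference beyond that spread (-0.03 ± 0.05 and 0.02 ± 0.13). Marveld2, which encodes tricellulin, the protein of tricellular contacts, read 7.82, 7.78 and 7.79 in control and 7.80, 7.80 and 7.86 in knockout. Cgn, the gene of the cytoplasmic linker cingulin, read 7.94, 7.92 and 7.91 in control and 7.94, 7.90 and 7.93 in knockout. Both overlapped near the median of all values, as did Marveld1, at 7.88 in both groups.

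Among the 9 adherens junction and adhesion genes, Nectin2 fell, and no other gene was called. E-cadherin, encoded by Cdh1, is the textbook target of Snail repression. Cdh1 read 11.12, 11.42 and 11.50 in control and 11.16, 11.80 and 11.62 in knockout. The groups overlapped, with the first array of each group lowest. The 95% interval of the difference, -0.27 to 0.63, was among the widest of the family, and its second probe, at 8.10 in control and knockout alike, differed by 0.00. Each knockout array lay above its control of the same number (0.04, 0.37 and 0.12), and the adjusted p was 0.51 with the block.

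Cdh17, the liver-intestine cadherin, varied with the replicate number as Cldn4 did. It read 8.92, 8.96 and 9.54 in control and 9.06, 9.18 and 9.64 in knockout. The third array stood highest in both groups, and the pairs differed by 0.14, 0.22 and 0.10. The difference of 0.15 had an SE of 0.22 without and 0.03 with the block (limma adjusted p = 0.97 and 0.22). Enterocyte markers were likewise highest on the third array of each group, with list means of 10.95, 10.73 and 11.11 in control and 10.76, 10.77 and 10.97 in knockout. So were goblet markers (9.34, 9.27 and 9.64, then 9.28, 9.45 and 9.71) and Paneth markers (10.76, 10.78 and 10.96, then 10.51, 10.79 and 11.02). The epithelial list means were also highest there, whereas crypt base stem cell markers were highest on the second array (10.06 in control and 10.24 in knockout). The part of any of these cell types in the spread of Cldn4 and Cdh17 was not tested.

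The catenin and afadin genes tie cadherins and nectins to actin. Ctnna1, for alpha-catenin, read 13.44, 13.44 and 13.31 in control and 13.58, 13.41 and 13.58 in knockout, with 1 knockout array inside the control range (0.13 ± 0.06, SE, adjusted p = 0.76). Afdn, for afadin, the cytoplasmic partner of nectins, read 11.54, 11.73 and 11.56 in control and 11.64, 11.49 and 11.54 in knockout. The groups overlapped in part, and the difference was -0.05 ± 0.06.

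Nectin3, a partner that binds nectin-2 and nectin-1 across the cell border, was not called. It read 12.17, 12.33 and 12.18 in control and 12.35, 12.27 and 12.42 in knockout. The groups overlapped, and the difference was 0.12 ± 0.06 (SE, adjusted p = 0.77). Its second bright probe gave 0.16 with no overlap, while 2 dim probes gave -0.04 and -0.02. The difference between the responses of Nectin2 and Nectin3 was not tested. Nectin1 read 7.95 in control and 7.94 in knockout, near the bottom of the scale. Nectin4 lay there too, at 7.85, 7.85 and 7.84 in control and 7.93, 7.87 and 7.85 in knockout, with overlap. Epcam, whose product marks epithelial cells and holds claudin-7 in place, had 1 probe, at 8.13, 8.12 and 8.15 in control and 8.07, 8.07 and 8.15 in knockout. That level is below the upper quartile of all values.

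None of the 14 desmosome genes was called, and 5 were above the upper quartile. Desmoglein-2 is the desmosomal cadherin of simple epithelia. Dsg2 read 12.10, 11.96 and 12.20 in control and 12.11, 12.18 and 12.40 in knockout by its brightest probe. The groups overlapped, and each knockout array lay above its control of the same number. All 4 Dsg2 probes had higher means in the knockout, by 0.15, 0.41, 0.32 and 0.14. The second of these, at 9.81, 9.23 and 9.89 in control and 9.93, 10.05 and 10.18 in knockout, did not overlap. No Dsg2 probe passed over all probes (adjusted p from 0.80 to 0.93), and its pairs were uneven, the second control array being low.

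Plakophilins link the desmosomal cadherins to the filament anchor. Pkp2 had probes of nearly equal brightness that gave different answers. The one used, at a mean of 11.1417, read 11.01, 11.20 and 11.14 in control and 11.10, 11.12 and 11.28 in knockout, a difference of 0.05 ± 0.07. The other, at a mean of 11.1412, read 11.15, 11.03 and 10.96 in control and 11.28, 11.23 and 11.20 in knockout. It did not overlap and differed by 0.19 ± 0.05 (SE, adjusted p = 0.56 over all probes). The remaining Pkp2 probe differed by -0.02, so what Pkp2 did depended on the probe.

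Pkp4 differed by -0.02 ± 0.05 at its brightest probe (10.91, 11.06 and 10.90 in control, 10.95, 10.96 and 10.90 in knockout) and by 0.23 ± 0.16 at the next. Pkp3 read 9.37 in control and 9.38 in knockout, and Pkp1 9.02 and 9.04. Jup, which encodes plakoglobin, read 7.87, 7.89 and 7.82 in control and 7.84, 7.88 and 7.88 in knockout. Desmocollins and the desmogleins of stratified epithelia lay at 7.80 to 7.92. Of these, Dsg1b was the desmosome gene without overlap, at 7.81, 7.85 and 7.84 in control and 7.88, 7.87 and 7.85 in knockout, with nearest arrays alike to 2 decimals. Dsg4 read 7.86, 7.89 and 7.88 in control and 7.88, 7.88 and 7.99 in knockout. Dsg1c read 7.89, 7.98 and 7.90 in control and 7.88, 7.90 and 7.91 in knockout, and both overlapped. Probes of Dsg1a, Dsg1b and Dsg1c may see each other's transcripts.

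**Figure D3:**
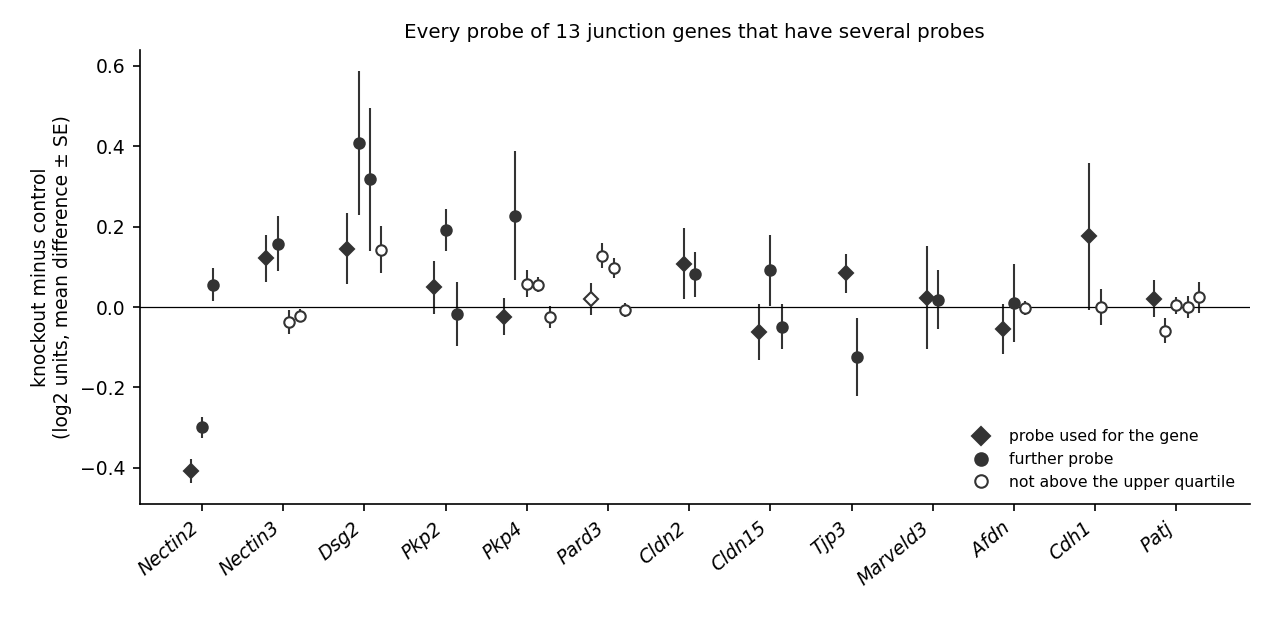
Mean difference (knockout minus control, log2 units) with its standard error for every probe of 13 junction genes that have several probes; diamonds mark the probe used for the gene and open symbols probes not above the upper quartile. The probes of Dsg2, Cldn2, Marveld3 and Cdh1 all lay above 0, the lower Cdh1 probe by only 6e-04. Those of Nectin2, Nectin3, Pkp2, Pkp4, Pard3, Tjp3, Cldn15, Afdn and Patj did not share a sign.

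Of the 5 polarity genes, Llgl2 had the lowest p after Nectin2 among all members. It encodes a basolateral Lgl protein that keeps the apical complexes in place. Llgl2 read 11.92, 11.79 and 11.82 in control and 12.06, 11.91 and 12.06 in knockout. A knockout array lay just below the highest control, and all 3 pairs were higher, by 0.14, 0.12 and 0.23. The difference was 0.16 ± 0.05 (SE, unadjusted p = 0.023, limma), but the adjusted p over all genes was 0.56 and, with the block, 0.20.

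Crb3, the Crumbs protein of simple epithelia, read 8.22, 8.09 and 8.30 in control and 8.19, 8.01 and 8.11 in knockout, with overlap. Pard6b, a Par complex member, read 7.99, 8.0 and 8.04 in control and 7.97, 7.97 and 7.94 in knockout. Its groups did not overlap, but the difference was -0.05 ± 0.02 near the bottom of the scale (adjusted p = 0.74). Patj, a scaffold of the Crumbs complex, read 8.79, 8.87 and 8.69 in control and 8.81, 8.81 and 8.80 in knockout. Pard3, the Par complex scaffold, differed by 0.02 ± 0.04 at the probe used, with 7.94, 7.99 and 8.09 in control and 8.04, 8.02 and 8.02 in knockout. A pair of its dimmer probes, chosen after their values were seen, differed by 0.13 and 0.10 without overlap, and neither passed over all probes (adjusted p = 0.47 each).

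The arrays were also compared in pairs of the same number. With the replicate block no member passed an adjusted p of 0.05, against 0.0472% of all genes called in either direction and 0.0210% called lower. With the block, 8 members (13.3%) had an unadjusted p under 0.05, against 10.9% of all genes. These were Nectin2, Cldn4, Cldn23, Tjp1, Ocln, Cdh17, Dsg2 and Llgl2. Of the 25 brighter members, 7 were higher in every pair (Cldn12, Tjp3, Ocln, Cdh1, Cdh17, Dsg2 and Llgl2). Another 4 were lower in every pair (Cldn23, Cldn4, Tjp1 and Nectin2). Together they make 44% of the brighter members, and 38.3% of all genes above the upper quartile likewise had 1 sign in every pair.

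**Figure D4:**
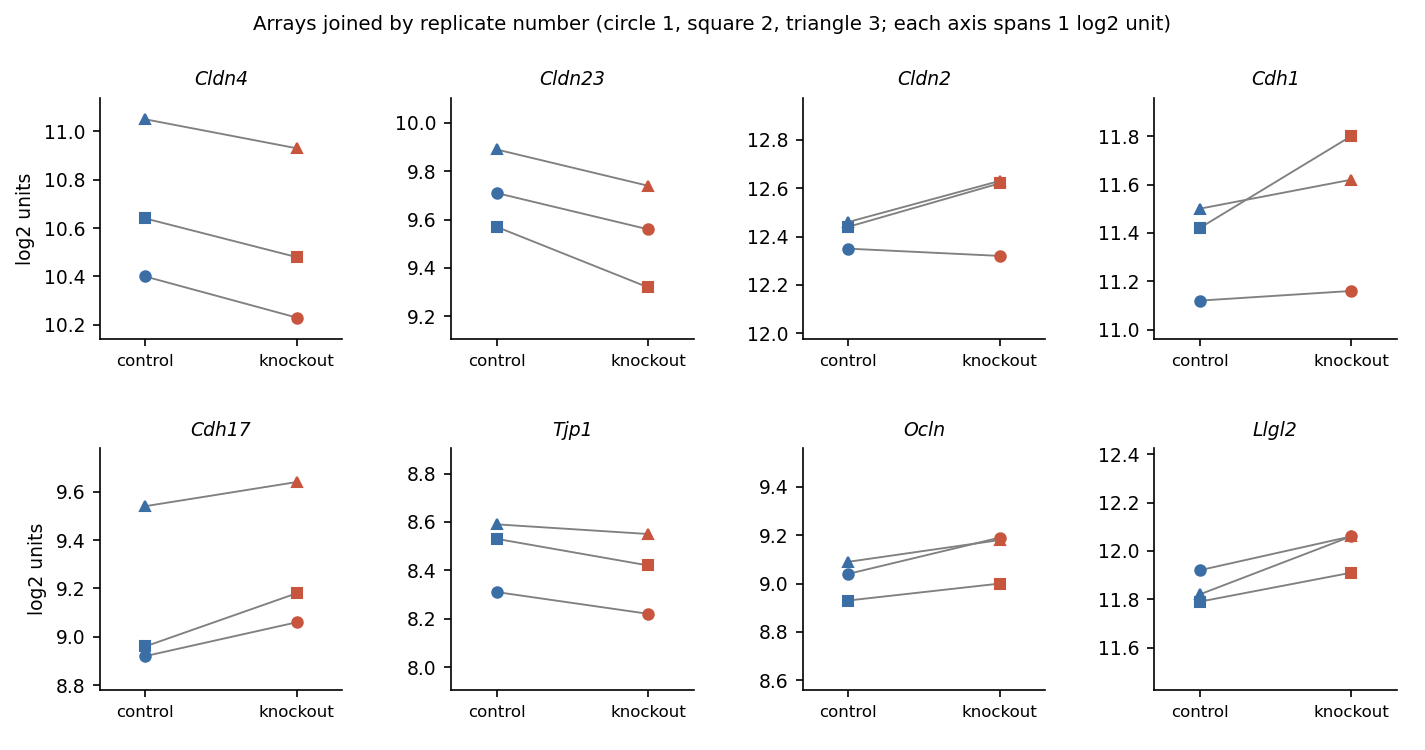
Expression (log2 units) of 8 junction genes on each array, with lines joining control and knockout arrays of the same replicate number. The lines of Cldn4 and Cdh17 run nearly parallel, and their replicates differed more than the genotypes, whereas those of Cdh1 do not.

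No gene was called in the lists of neighbouring genes below, which hold too few genes for a count of 0 to differ from the 0.131% of all genes called. The lists were 26 other junction plaque genes, 24 other cadherins and catenins, 14 gap junction genes, 12 hemidesmosome genes, 21 other polarity genes, 11 junction proteases and inhibitors and 17 junction actomyosin genes. Between 0 and 2 genes a list had an unadjusted p under 0.05 by limma. That was 0% of the cadherin and catenin and the gap junction lists. It was 7.69% to 11.8% of each other list, against 7.22% of all genes. These counts are too small to set the shares against each other. Llgl1, the close relative of Llgl2, had the lowest p of these lists. It read 10.50, 10.66 and 10.50 in control and 10.74, 10.84 and 10.81 in knockout, without overlap (0.24 ± 0.05, SE, adjusted p = 0.31, limma). Arhgef11, which activates RhoA, differed by 0.21, Itga6, the hemidesmosomal integrin, by 0.13, and Spint1, a protease inhibitor of epithelia, by 0.18. Lsr, a tricellular junction gene, differed by 0.14 and Sympk by -0.14. None of these passed over all genes (adjusted p from 0.43 to 0.56).

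Among 20 measured genes reported as Snail targets, 9 had a higher and 11 a lower mean, with a median difference of -0.01. Of the 15 above the upper quartile, 8 had a higher and 7 a lower mean, with a median difference of 0.01. The splicing regulator Esrp1 rose by 1.26 ± 0.07 (SE, adjusted p = 0.0062, limma), and it is no junction gene. It was the 1 of 20 called (5%), against 0.131% of all genes, on a list drawn up with earlier results of these data known. Of the 12 junction genes on the list, Cdh1, Ocln, Llgl2, Pkp2 and Patj had higher means. Cldn1, Cldn3, Cldn4, Cldn7, Tjp1, Crb3 and Epcam had lower ones. None of the 12 was called, and Cldn1, Crb3 and Epcam lay below the upper quartile.

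**Figure D5:**
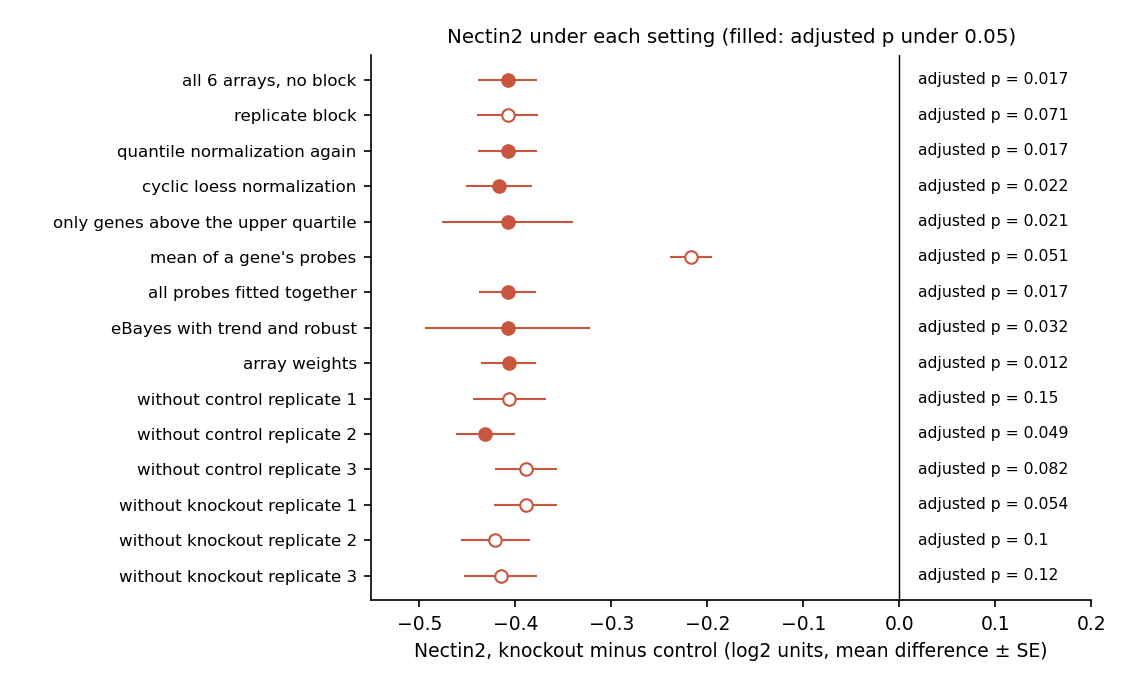
Nectin2 difference (knockout minus control, log2 units) with its standard error and adjusted p under each setting of the processing; filled points have an adjusted p under 0.05. The difference stayed between -0.43 and -0.39 except for the mean of the probes (-0.22), while the adjusted p lay on both sides of 0.05.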

How the data were processed

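Biotin-labelled cRNA from 6 organoid samples was hybridised to Illumina arrays, per the labels' protocols. The deposited values are on a log scale, taken as log2. They had been equalised between arrays by the authors, since the sorted columns differed by at most 0.0019. The sources used here do not give the background correction, the software or the log base. Each array gave 45281 values from 7.71 to 14.78 (median 7.87). No detection calls were used here, and the number of arrays limits the precision.

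The platform's annotation paired 34885 probes with 1 gene, 18 with several and 10378 with none. Each gene was represented by its probe of highest mean over the 6 arrays, giving 19057 genes. Groups were taken from the sample titles. The contrast, knockout minus control, was fitted over all 6 arrays in limma 3.58.1 under R 4.3.3, using lmFit and eBayes with no trend, with Benjamini-Hochberg adjustment over all genes and a threshold of 0.05. A gene described as brighter lies above the upper quartile of all values (8.27). The members and lists were chosen with earlier results of these data known. Values on each array are given for members called, the 4 of lowest p and the 3 of highest mean in each subgroup, and fixed genes such as Cdh1. Cldn23, and further probes of genes other than Nectin2 and those of lowest p, were picked with their values in view.

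Deviations from the group means correlated at r = 0.35, 0.33 and 0.46 between control and knockout arrays numbered 1, 2 and 3. Arrays of unlike number gave -0.33 to 0. Over the junction genes alone, r was 0.75, 0.26 and 0.72 for like numbers and -0.66 to 0.08 for unlike ones. Deviations within a group sum to 0, so these values are not independent. The labels do not say what a number shares. The main fit did not pair the samples, and the replicate block was fitted as an alternative. In data simulated for this comparison, 200 of 19057 genes were given a change. Of these, limma recovered 82.1% of 67 genes changed by 0.5 log2 units and 97% of 67 changed by 1. The measured arrays gave 25 called genes, and recovery with fewer changed genes was not tested. Recovery at the level and spread of the junction genes was not tested either. Promoter windows came from RefSeq (GRCm38.p6) and were searched with Python 3.11.15.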

Additional observations from a re-analysis of the deposited data

How the results depend on the processing

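Nectin2 was lower in the knockout in all 14 alternatives, by differences of -0.431 to -0.217. The number of junction genes called, 1 as fitted, was 0 with the replicate block and 0 with the mean of a gene's probes, and from 0 to 1 when 1 array was left out. The call was lost without control replicate 1 (adjusted p = 0.15) or 3 (0.082) and without knockout replicate 1 (0.054), 2 (0.1) or 3 (0.12), and kept without control replicate 2 (0.049). These fits have fewer samples. The count stayed at 1 with cyclic loess, the filter on dim genes, all probes fitted together, a variance trend and array weights. It also stayed at 1 with quantile normalization again, which could change little because the deposited arrays were already equalised. The median difference of 0.002 was 0.024 among genes above the upper quartile, where 25 members were tested, and lay between -0.002 and 0.010 when 1 array was left out. Over all genes, 25 were called as fitted, 9 with the replicate block, 41 with the filter on dim genes, 71 with a variance trend and 4 to 23 when 1 array was left out. The cause of the last differences was not tested. The 35 genes with values on each array were followed through 14 alternatives, except that the filter on dim genes left 21 of them. Of the resulting 476 values, 464 stayed within 1 SD between replicates or on the same side of the threshold. That share mostly reflects genes that were not called as fitted, and says little of Nectin2. In 7 values the Nectin2 call was lost. Another 5 moved further, such as Tjp3 with the mean of its probes (-0.02, from 0.08 as fitted). Nectin2, the only called gene among the 35, kept its sign. The replicate block changed no call other than that of Nectin2 among junction genes. Genes near the bottom of the scale could not be resolved, since background, low expression and a probe that does not report its transcript cannot be told apart there.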
